A study of Mus musculus with 28 samples.

Results

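The kidneys of 35-week-old diabetic db/db mice with 1 kidney removed were compared with those of intact db/m mice of the same age. The db/db group (uninephrectomized, Unx) held 5 libraries, replicates 1, 2, 3, 5 and 6, and the db/m group, labelled intact, held 6 libraries, replicates 1 to 6. All came from male mice and all were bulk RNA-seq of whole kidney. These 11 of the 28 libraries of the series were taken by their strain, age and surgery labels, with no measured value. The other 17 were 12 db/db Unx and 5 db/m libraries of 26 weeks. Every db/db mouse had been uninephrectomized and every db/m mouse was intact, so the genotype, the diabetes and the loss of the other kidney form 1 contrast and cannot be told apart. The labels do not say that each library is 1 animal, so p-values measure the spread between these libraries.

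The db mutation removes the long, signalling form of the leptin receptor in every cell, which leaves db/db mice obese, hyperglycaemic and resistant to insulin, while db/m mice carry 1 normal allele and stay lean. Removing a kidney adds filtration load to the one that remains. Most of the RNA of a kidney comes from the proximal tubule, which takes back glucose, phosphate, amino acids and filtered protein, secretes organic ions, lives largely on fatty acids and, in male mice, expresses a set of androgen-dependent genes. Tubule cells under stress lose parts of this programme and switch on secreted proteins, matrix, complement and antigen-presentation genes.

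Of the 14845 genes in the table, 13495 reached 1 or more in 5 or more of the 28 libraries and were tested. Values are the deposited ones, estimated reads multiplied by 1 factor per library, and are not per gene length, so levels are not compared between genes here. Changes are differences of log2(value + 1) between db/db Unx and db/m, which understate the change of low genes, and are given with a standard error. Adjusted p-values in the text are from limma with the Benjamini-Hochberg adjustment over all 13495 genes, and a gene was called, or is said to have risen or fallen, at an adjusted p below 0.05. Estimated depth was 27.5 ± 3.41 M counts in db/db Unx (SD, n = 5) and 25.01 ± 3.29 M in db/m (n = 6). Values of the db/db Unx libraries are listed in the order of replicates 1, 2, 3, 5 and 6, and those of db/m as the lowest, the median and the highest of 6. Positions are those of GRCm38.

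On the first principal component of the 11 libraries, which held 52.97% of the variance, the db/db Unx libraries lay between 22.3 and 41.0 and the db/m libraries between -31.3 and -21.8. The second held 10.8%, and on it db/db Unx replicate 3 lay at 32.8 and replicate 2 at -26.7, with the other 9 libraries between -8.48 and 8.56. Replicate 3 had the highest list scores of interferon and antigen-presentation genes, and the scores of replicate 2 lay within or below the db/m range. Replicates 3, 5 and 6 lay further along the first component (36.6 to 41.0) than replicates 1 and 2 (22.3 and 24.3). List counts that moved by more than 1.5 times and named genes that lost their call without replicates 3, 5 and 6 are given below.

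In 35-week db/db Unx kidneys 33 of 35 tubular injury genes rose, with C3 higher by 4.47 ± 0.24 and Lcn2 by 4.29 ± 0.29 on the log2 scale. The 3 fibrinogen genes rose, as did 22 of 38 interstitial matrix genes, 18 of 32 conjugating enzymes and 21 of 37 genes of fatty acid oxidation and PPAR-alpha targets, among them Cyp4a14 by 6.72 ± 0.32. Of 14 male-biased genes 13 fell, led by Slco1a1 (-7.43 ± 0.61), and so did 16 of 26 organic ion transporters, 16 of 30 genes of cholesterol and fatty acid synthesis and uptake and 7 of 10 renin-angiotensin genes. All 8 MHC class II genes and 16 of 32 interferon-stimulated genes rose, and they differed widely between the 5 db/db Unx libraries.

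In all, 4357 genes were called, 32.3% of those tested. Of them 2148 (15.9%) rose and 2209 (16.4%) fell. Changes of at least 2-fold were fewer, with 389 genes higher (2.88%) and 277 lower (2.05%). The values of the 5 db/db Unx libraries lay wholly above those of the 6 db/m libraries for 1058 genes (7.84%) and wholly below them for 1389 genes (10.3%). The median change over all tested genes was 0.01, and the median size of a called change was 0.51. Of the 9138 genes that were not called, 5785 had a 95% interval that lay within 0.5 on either side of 0. By at least 2 on the log2 scale 47 genes rose and 70 fell, and by at least 3, 19 rose and 17 fell. Genes of high level were called more often: 51.75% in the highest of 4 equal classes by mean value and 19.95% in the lowest. The counts of gene lists below are descriptions, to be read beside these shares of all tested genes and their median.

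**Figure D1:**
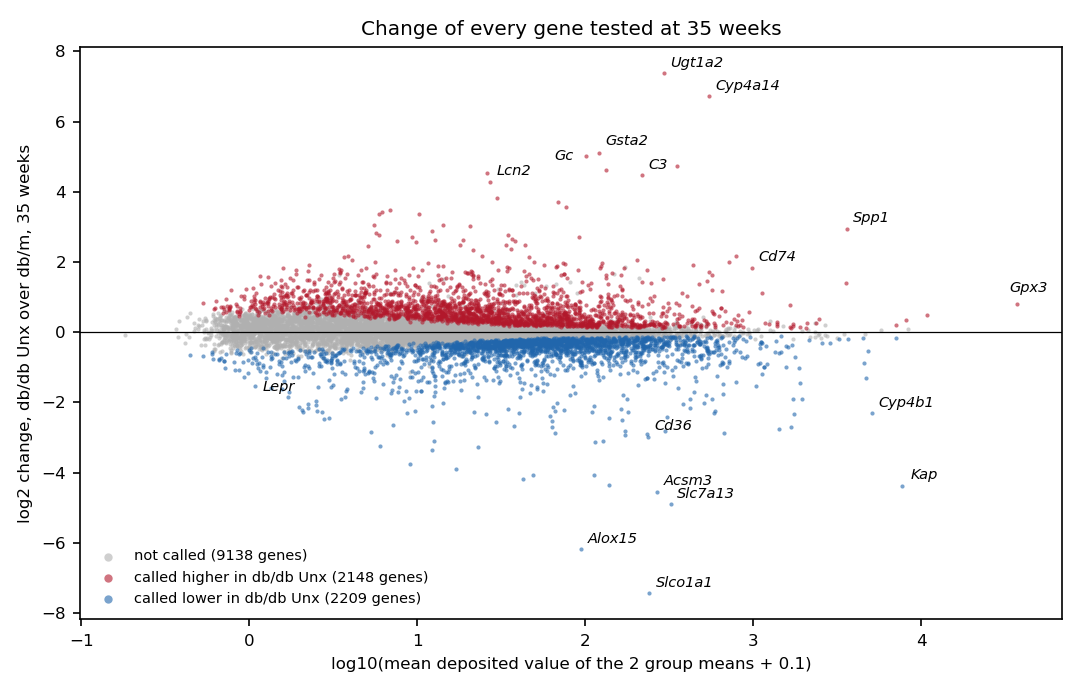
Level of each of the 13495 tested genes, as log10 of the mean of both 35-week group means plus 0.1 (horizontal axis), against its log2 change, db/db Unx over db/m (vertical axis), with called genes coloured and the genes of the largest changes named. The 2148 genes that rose and the 2209 that fell are spread over the range of levels, and changes range from Ugt1a2 at 7.38 to Slco1a1 at -7.43.

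The leptin receptor gene Lepr (ENSMUSG00000057722, chromosome 4, 101717404 to 101815352, plus strand) had values of 0.723, 0.675, 0.453, 1.27 and 0.0364 in db/db Unx, against 0.799 at the lowest, 1.90 at the median and 4.70 at the highest in db/m. All of these are low, and the groups overlapped. The change was -0.91 ± 0.24 (adjusted p 0.00309). The db mutation alters splicing, so a value per gene does not check the genotype labels.

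The largest increases were in enzymes that conjugate or oxidise lipids and foreign compounds, in secreted proteins better known from liver, and in injury proteins of the tubule. Ugt1a2 (ENSMUSG00000090171, chromosome 1, 88200601 to 88218997, plus strand), which joins glucuronic acid to bilirubin-like and foreign compounds, had values of 433, 462, 526, 729 and 792 in db/db Unx, against 1.06 at the lowest, 2.90 at the median and 3.43 at the highest in db/m. Cyp4a14 (ENSMUSG00000028715, chromosome 4, 115486200 to 115496142, minus strand), a fatty acid omega-hydroxylase and a classic target of PPAR-alpha, had 757, 1009.6, 1051, 1559.9 and 1061 in db/db Unx, against 4.50 at the lowest, 9.56 at the median and 14.9 at the highest in db/m. Both genes were low in db/m and high in every db/db Unx library, and the spread among the db/db Unx libraries was small beside the gap between the groups. Ugt1a2 rose by 7.38 ± 0.47 (adjusted p 3.70e-12) and Cyp4a14 by 6.72 ± 0.32 (adjusted p 1.73e-14).

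Gc (ENSMUSG00000035540, chromosome 5, 89417522 to 89457898, minus strand), the vitamin D binding protein of plasma, had 181, 188, 155, 220.5 and 239 in db/db Unx, against 3.68 at the lowest, 5.27 at the median and 6.16 at the highest in db/m, and rose by 5.03 ± 0.18 (adjusted p 3.15e-18). Its 5 db/db Unx values lay close together and far above db/m. Cyp27b1, the enzyme that makes active vitamin D, rose by 3.57 ± 0.28, and Bhmt, which remethylates homocysteine with betaine, by 3.83 ± 0.33. Kynu, an enzyme of tryptophan breakdown, rose by 3.06 ± 0.20. Groups did not overlap for any of these 4 genes, but the genes of largest change were named only where groups do not overlap. The largest adjusted p of the 4 was the 6.10e-10 of Bhmt.

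Injury proteins of the tubule stood among the 15 largest increases. C3 (ENSMUSG00000024164, chromosome 17, 57203970 to 57228136, minus strand), the central complement protein, had 359, 266, 318, 616 and 546 in db/db Unx, against 14.1 at the lowest, 16.9 at the median and 21.2 at the highest in db/m. Lcn2 (ENSMUSG00000026822, chromosome 2, 32384633 to 32388252, minus strand), a siderophore-binding protein that injured tubules secrete into urine, had 41.3, 33.0, 56.7, 67.5 and 63.0 in db/db Unx, against 0.846 at the lowest, 1.69 at the median and 2.46 at the highest in db/m. Both were lowest in replicate 2 among the db/db Unx libraries, and that library too lay far above every db/m library. C3 rose by 4.47 ± 0.24 (adjusted p 8.08e-14) and Lcn2 by 4.29 ± 0.29 (adjusted p 1.95e-12). Havcr1 (ENSMUSG00000040405, chromosome 11, 46735080 to 46779578, plus strand), kidney injury molecule-1, had 27.6, 12.0, 15.6, 41.7 and 94.4 in db/db Unx, against 1.55 at the lowest, 2.86 at the median and 5.31 at the highest in db/m, and rose by 3.01 ± 0.50 (adjusted p 3.46e-05). Spp1, osteopontin, had 6423 ± 1591 in db/db Unx (SD, n = 5) and 812 ± 69.8 in db/m (n = 6) and rose by 2.95 ± 0.16.

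**Figure D2:**
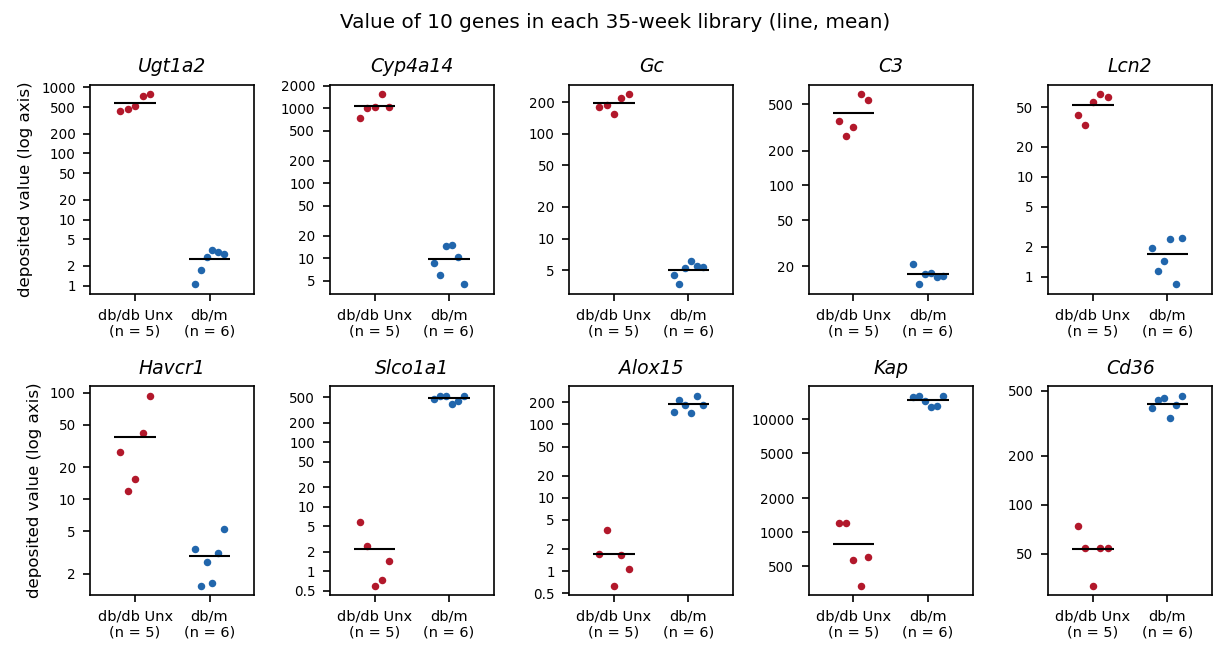
Deposited value per library, on a log axis, of 10 genes among the largest changes, with the 5 db/db Unx libraries left of the 6 db/m libraries and a line at each group's mean. For each of the 10 genes every db/db Unx value lies on one side of every db/m value: Ugt1a2, Cyp4a14, Gc, C3, Lcn2 and Havcr1 above, and Slco1a1, Alox15, Kap and Cd36 below. The genes of largest change were named only where groups do not overlap.

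Conjugating enzymes as a group leaned upwards. Of 32 tested Ugt, Gst and sulfotransferase genes 18 rose (56.2%) and 9 fell, with a median change of 0.40. Beside Ugt1a2, Ugt1a10 rose by 4.61 ± 0.18, Ugt1a1 by 4.54 ± 0.35, the glutathione transferase Gsta2 by 5.10 ± 0.26 and Gsta1 by 3.47 ± 0.22. How reads divide within the Ugt1a family, whose last exons are common to all members, and among the near-copies of the Gsta and Cyp4a families is uncertain. The cytochrome P450 genes split, with 8 of 24 higher and 10 lower and a median of -0.25.

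Large decreases included genes of the last, S3 segment of the proximal tubule and genes that male mouse kidneys express more than female ones. Slco1a1 (ENSMUSG00000041698, chromosome 6, 141907282 to 141946962, minus strand), an organic anion uptake transporter, had 5.75, 2.50, 0.604, 0.737 and 1.46 in db/db Unx, against 398 at the lowest, 492 at the median and 531 at the highest in db/m. Kap (ENSMUSG00000032758, chromosome 6, 133849851 to 133853762, minus strand), the kidney androgen-regulated protein of unknown function, had 1209, 1214, 574, 339 and 606 in db/db Unx, against 12816 at the lowest, 14996 at the median and 16128 at the highest in db/m. Every db/db Unx library was below every db/m library for both, and replicates 1 and 2 kept the most Kap RNA. Slco1a1 fell by 7.43 ± 0.61 (adjusted p 4.12e-10) and Kap by 4.37 ± 0.31 (adjusted p 2.48e-11). Kap transcripts were 0.037% to 0.131% of all values in db/db Unx libraries and 1.35% to 1.68% in db/m libraries.

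Of 14 tested male-biased genes 13 fell (92.9%) and 1 rose, and the median change was -2.81. The amino acid transporter Slc7a13 had 49.0, 27.6, 13.3, 11.5 and 14.9 in db/db Unx, against 531 at the lowest, 633 at the median and 659 at the highest in db/m, and changed by -4.89 ± 0.33. Replicates 1 and 2 were the highest of the db/db Unx libraries, as for Kap. Acsm3, a medium-chain acyl-CoA synthetase, changed by -4.55 ± 0.25 and the oxysterol hydroxylase Cyp7b1 by -3.09 ± 0.28. The member that rose was Cyp4a12b, a fatty acid hydroxylase, by 1.18 ± 0.17, and its near-copy Cyp4a12a can share its reads. Of 4 female-biased genes 3 rose, among them the prolactin receptor Prlr by 2.60 ± 0.20 and the transporter Slc7a12 by 1.85 ± 0.31, and Cyp2a4, a steroid hydroxylase, fell by 2.04 ± 0.18. Srd5a2, the enzyme that turns testosterone into dihydrotestosterone, fell by 3.89 ± 0.24, and Akr1c14, which breaks dihydrotestosterone down, by 4.35 ± 0.26.

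Lipid genes and secreted proteins also stood among the large decreases. Alox15 (ENSMUSG00000018924, chromosome 11, 70344152 to 70352031, minus strand), a 12/15-lipoxygenase, had 1.71, 3.57, 0.634, 1.65 and 1.06 in db/db Unx, against 145 at the lowest, 185 at the median and 248 at the highest in db/m. Cd36 (ENSMUSG00000002944, chromosome 5, 17781690 to 17888801, minus strand), a fatty acid uptake receptor, had 74.3, 54.6, 31.9, 53.9 and 54.4 in db/db Unx, against 341 at the lowest, 425 at the median and 469 at the highest in db/m. The groups were far apart for both genes, and Alox15 was close to 0 in db/db Unx. Alox15 changed by -6.18 ± 0.24 (adjusted p 5.19e-18) and Cd36 by -2.98 ± 0.27 (adjusted p 2.07e-09). The protease inhibitor Pzp changed by -4.08 ± 0.33, the secreted C1qtnf3 by -3.12 ± 0.14 and Angptl7 by -3.36 ± 0.29. C4a changed by -3.28 ± 0.24, with reads that a near-copy of the gene can share.

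Transport genes of the proximal tubule did not move as 1 block. Organic ion transporters leaned downwards, with 16 of 26 lower (61.5%) and 5 higher and a median of -0.53. Slc22a7, which takes up organic anions, changed by -4.07 ± 0.35, and its relatives Slc22a30 and Slc22a19 by -2.81 ± 0.19 and -2.24 ± 0.24. Slc22a7 and its relatives are similar in sequence, so their reads are uncertain. The efflux pump Abcc3 went the other way, with 13.8 to 25.0 in db/db Unx and 0 to 2.18 in db/m, a change of 3.37 ± 0.26.

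The 20 amino acid transporters included 9 that rose and 7 that fell, with a median of 0.24. Slc38a3, which carries glutamine into the cell for ammonia production, rose by 2.72 ± 0.17. The 22 transporters of glucose, phosphate and sodium included 9 that rose and 6 that fell, with a median of 0.01. The S3 glucose transporter Slc5a1 rose by 0.93 ± 0.08, the mannose and fructose transporter Slc5a10 by 1.72 ± 0.08 and the fructose transporter Slc2a5 by 0.91 ± 0.16. The main glucose transporter of the early tubule, Slc5a2, the target of SGLT2 inhibitors, was not called, with 611 ± 52.8 in db/db Unx (SD, n = 5) and 651 ± 25.1 in db/m (n = 6) and an interval of -0.31 to 0.12. Slc34a1, the phosphate transporter NaPi-IIa, had 3922 ± 324 in db/db Unx and 5732 ± 201 in db/m and changed by -0.55 ± 0.05 (adjusted p 1.32e-10). Under quantile normalization its change was -0.11 and was not called (adjusted p 0.0904). Of 13 genes of protein reabsorption 6 fell and 2 rose, with a median of -0.16. Megalin, Lrp2, the receptor that takes filtered protein into the cell, fell by 0.74 ± 0.05 and its chaperone Lrpap1 by 0.82 ± 0.05, while the lysosomal proteases Ctsb and Ctsl rose by 0.50 ± 0.06 and 0.26 ± 0.06.

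As a check of cell composition, 12 markers of the S1 and S2 segments included 3 that rose and 4 that fell, with a median of -0.11, and their summed values were 23552 to 29748 in db/db Unx and 23348 to 26014 in db/m. The 8 S3 markers, which share Slc7a13, Slc22a7, Slc22a19 and Acsm3 with the groups above, included 5 that fell and 3 that rose, with a median of -1.31 and sums of 1014 to 1174 in db/db Unx and 1998 to 2426 in db/m. In whole kidney, fewer cells of a type and less RNA per cell cannot be told apart. The S3 markers moved with the male-biased genes and the organic ion transporters, and their part in those results was not tested.

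Genes of fatty acid oxidation and PPAR-alpha targets leaned upwards. Of 37 tested genes 21 rose (56.8%) and 5 fell, with a median of 0.46. Cyp4a10 had 1056 to 1802 in db/db Unx and 189 to 415 in db/m, a change of 2.16 ± 0.23. Fabp1, the liver fatty acid binding protein, had 3.42, 2.30, 1.96, 7.04 and 2.26 in db/db Unx, against 0 at the lowest, 0.0819 at the median and 0.705 at the highest in db/m, and rose by 1.78 ± 0.24 (adjusted p 2.95e-07). Its values did not overlap. Pdk4, which keeps pyruvate out of the citric acid cycle, rose by 1.61 ± 0.34 and was highest in replicate 5.

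PPAR-alpha binds, with its partner RXR, to direct repeats of a hexamer. The Fabp1 promoter is shown because it carries such a repeat: it runs from 250 bases before to 50 bases after the RefSeq transcription start, chr6:71199629-71199928 on the plus strand of GRCm38.p6, with the repeat in capitals.
Fabp1: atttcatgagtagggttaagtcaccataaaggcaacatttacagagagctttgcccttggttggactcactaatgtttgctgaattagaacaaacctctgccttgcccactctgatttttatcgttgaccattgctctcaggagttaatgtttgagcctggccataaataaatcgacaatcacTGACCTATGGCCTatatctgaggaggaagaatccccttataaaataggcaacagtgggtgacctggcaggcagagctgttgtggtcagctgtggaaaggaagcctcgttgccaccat
The motif searched on both strands was AGGNCA, 1 base, AGGNCA, and the match in the Fabp1 promoter is its reverse complement, which starts 67 bases before the transcription start. It lay in 0.381% of the 32851 RefSeq mouse promoters of this length and in 0.265% of the 13569 promoters of tested genes. Among the 348 promoters of genes that rose at least 2-fold 3 held it (0.862%), and among the 250 of genes that fell at least 2-fold 0 did. A match is a description of the letters and not a site at which a factor was measured.

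Of 6 tested ketone body genes 4 fell and 1 rose. Those that fell included the beta-hydroxybutyrate dehydrogenase Bdh1 (-1.79 ± 0.13), the thiolase Acat1 (-1.42 ± 0.06) and the ketone-using transferase Oxct1 (-0.92 ± 0.06). Of 30 genes of cholesterol and fatty acid synthesis and uptake 16 fell (53.3%) and 3 rose, with a median of -0.37. The sterol synthesis genes Idi1 and Cyp51 fell by 2.88 ± 0.20 and 2.44 ± 0.19. Scd1, which desaturates stearate, rose by 1.32 ± 0.25.

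Of 12 genes of gluconeogenesis, fructose and polyol metabolism 6 rose and 2 fell, with a median of 0.34. Pck1 (ENSMUSG00000027513, chromosome 2, 173153048 to 173159273, plus strand), the cytosolic PEP carboxykinase, had 3582, 7404, 3244, 6420.03 and 5303 in db/db Unx, against 1244 at the lowest, 1782 at the median and 3397 at the highest in db/m. Replicate 3 lay inside the db/m range and the other 4 libraries above it, and Pck1 rose by 1.39 ± 0.24 (adjusted p 4.48e-05). Aldose reductase, Akr1b3, the first enzyme of the polyol pathway, fell by 1.15 ± 0.24. Of 21 glycolysis genes 12 rose (57.1%) and 2 fell (1 without any 1 of db/db Unx replicates 3, 5 and 6 or db/m replicates 1, 2, 3 and 6), with a median of 0.23, led by Eno2 at 1.06 ± 0.20 and the muscle-type pyruvate kinase Pkm at 0.83 ± 0.10.

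Nuclear genes of the respiratory chain included 11 of 36 that rose and 8 that fell, with a median of 0.01. Under quantile normalization 25 rose and 2 fell, with a median of 0.17. The count that fell was 5 without any 1 of db/db Unx replicates 3, 5 and 6 or db/m replicate 1, and 4 with the 35-week libraries alone in the fit. Without db/db Unx replicates 3, 5 and 6 together 16 rose and 2 fell. Cycs, cytochrome c, fell by 0.51 ± 0.06 and Cox5b rose by 0.37 ± 0.05. Of 13 mitochondrially encoded genes 0 rose and 1 fell, mt-Cytb by 0.18 ± 0.07 (adjusted p 0.0442), a call that was lost without any 1 of 8 libraries. With all libraries, limma gave 0 higher and 3 lower at an unadjusted p below 0.05. The count that fell was 2 without db/db Unx replicate 1 and 3 without replicate 2, and under quantile normalization 2 of the 13 rose. With array weights 5 fell, and limma gave 7 lower at an unadjusted p below 0.05. Without db/db Unx replicates 3, 5 and 6 together 1 rose and 0 fell, with a median of 0.11. These 13 genes held 3.43% to 4.50% of all values in db/db Unx and 3.78% to 4.29% in db/m.

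Amino acid and one-carbon enzymes went both ways, with 11 of 36 higher and 15 lower (41.7%) and a median of -0.09. Beside Bhmt and Kynu, the mitochondrial arginase Arg2 rose by 2.47 ± 0.17, while Acy3, an aminoacylase that acts on mercapturates, fell by 2.35 ± 0.18. Of 9 genes of medium-chain acyl-CoA synthetases and glycine conjugation 7 fell (77.8%) and 1 rose, with a median of -0.47. Acsm2 had 2717 ± 265 in db/db Unx (SD, n = 5) and 6739.5 ± 512 in db/m (n = 6). The glycine decarboxylase Gldc rose by 2.04 ± 0.28.

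The largest differences on the scale of the values themselves lay in genes of high level. Gpx3 (ENSMUSG00000018339, chromosome 11, 54902453 to 54910377, plus strand), the plasma glutathione peroxidase that the proximal tubule secretes, had 46220.4, 46613, 46489.7, 50497 and 48048 in db/db Unx, against 24250.1 at the lowest, 27692 at the median and 29379 at the highest in db/m. It alone took 5.01% to 5.57% of all values in db/db Unx and 2.53% to 3.04% in db/m. Its change was 0.80 ± 0.05 (adjusted p 8.83e-16), with no overlap. Fth1, the heavy chain of ferritin, rose by 0.35 ± 0.04. In the other direction Selenop, the selenium transport protein, had 821 ± 134 in db/db Unx and 3088 ± 316 in db/m, a change of -1.92 ± 0.11. Cyp2e1 changed by -1.92 ± 0.15, Cyp4b1 by -2.31 ± 0.08, the dipeptidase Cndp2 by -2.69 ± 0.16 and the fatty acid activating Slc27a2 by -0.88 ± 0.05. Together the genes that rose held 28.3% to 31.7% of all values in db/db Unx and 18.1% to 19.5% in db/m, and those that fell held 25.7% to 28.3% in db/db Unx and 38.9% to 40.8% in db/m.

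Tubular injury genes rose almost without exception. Of 35 tested 33 rose (94.3%) and 1 fell, and the median change was 1.27. Besides C3, Lcn2, Havcr1 and Spp1, Krt20, a keratin that injured tubules switch on, had 4.70, 4.92, 5.71, 9.40 and 29.1 in db/db Unx, against 0 at the lowest, 0.0846 at the median and 0.376 at the highest in db/m. Every db/db Unx value was above every db/m value. Krt20 is also on the list of urothelium markers, of which 1 of 4 rose, Krt20 itself (2 without db/m replicate 4), while Psca, another of them, was at 2.17 to 5.96 in db/db Unx and at 0.0648 to 13.1 in db/m and was not called (adjusted p 0.0888). The score of the injury list, the mean log2 difference of its members from their db/m mean, was 1.21, 1.11, 1.43, 1.67 and 1.73 in the db/db Unx libraries and -0.16 to 0.13 over db/m. All 5 were high, replicates 5 and 6 the most.

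Interstitial matrix genes rose in 22 of 38 cases (57.9%) and fell in 1, with a median of 0.59. Col12a1, a fibril-associated collagen, rose by 1.61 ± 0.17, the cross-linking enzyme Lox by 1.28 ± 0.23, Col6a2 by 1.19 ± 0.22, Col5a2 by 1.18 ± 0.23 and Col1a2 by 1.09 ± 0.12. The score was 0.49, 0.34, 0.44, 0.94 and 0.69 in db/db Unx and -0.03 to 0.05 over db/m. Col1a1 had 12.3, 8.18, 6.85, 24.7 and 13.6 in db/db Unx, against 3.02 at the lowest, 5.44 at the median and 8.93 at the highest in db/m, which overlapped, and rose by 1.06 ± 0.24 (adjusted p 5.63e-04). Fibroblast markers moved with this list: 5 of 8 rose and 0 fell, with a median of 0.60 and sums of 87.8 to 153 in db/db Unx and 67.3 to 84.6 in db/m, and their part in the result was not tested. Col1a1, Col3a1, Col14a1, Dcn, Lum, Fbln1 and Mfap5 are on both lists, so the 2 results share much of their content. The defining marker Dcn was not called (change 0.12, adjusted p 0.587), and without replicate 5 the count of fibroblast markers that rose was 3. 

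Basement membrane genes did not follow the interstitial ones, with 5 of 21 higher and 4 lower and a median of 0.18, and the count that fell was 2 without db/db Unx replicate 5 or any 1 of db/m replicates 1, 2, 4 and 6. Col4a3 and Col4a4, chains of the mature collagen IV network of the glomerulus, fell by 0.81 ± 0.08 and 0.69 ± 0.08.

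Complement genes leaned upwards, with 12 of 20 higher (60.0%) and 2 lower and a median of 0.73. After C3 the largest were clusterin, Clu, at 1.46 ± 0.10 and the C5a receptor C5ar1 at 1.20 ± 0.26. Cd55, which speeds the decay of complement convertases, fell by 1.89 ± 0.19. C1qa, a product of macrophages, is in the macrophage list below.

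All 3 fibrinogen chains rose. Fgb had 6.91, 6.75, 5.77, 11.9 and 14.6 in db/db Unx, against 0.0887 at the lowest, 0.940 at the median and 1.62 at the highest in db/m, with no overlap, and rose by 2.44 ± 0.26 (adjusted p 1.35e-09). Fgg rose by 3.71 ± 0.22 and Fga by 1.94 ± 0.21. Of 17 coagulation genes 8 rose and 2 fell, with a median of 0.41, and Plau, urokinase, fell by 1.01 ± 0.16. The fibrinogen genes are acute-phase genes, which interleukin-6 drives through STAT3 in liver. Of 21 genes of STAT3 and IL-6 family signalling, which include the fibrinogen chains and Lcn2, 14 rose (66.7%) and 2 fell, with a median of 0.72. Cebpd, a transcription factor of that response, rose by 1.71 ± 0.25. Among 5 liver and pancreas markers 3 rose and 0 fell, with a median of 0.72. Their sums were 129 to 179.9 in db/db Unx and 96.7 to 159.9 in db/m. Albumin, Alb, was at 3.56 to 7.18 in db/db Unx and 1.46 to 3.53 in db/m.

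A STAT type motif, TTCNNNGAA on both strands, lies in the Fgb promoter, 162 bases before the start, and in that of Igtp, an interferon-induced GTPase, 45 bases before it. The 2 promoters are shown because the first belongs to a gene that was high in all 5 db/db Unx libraries and the second to one that was high mainly in replicate 3. They lie at chr3:83049814-83050113 on the minus strand and chr11:58199306-58199605 on the plus strand of GRCm38.p6 (RefSeq), with the motif in capitals.
Fgb: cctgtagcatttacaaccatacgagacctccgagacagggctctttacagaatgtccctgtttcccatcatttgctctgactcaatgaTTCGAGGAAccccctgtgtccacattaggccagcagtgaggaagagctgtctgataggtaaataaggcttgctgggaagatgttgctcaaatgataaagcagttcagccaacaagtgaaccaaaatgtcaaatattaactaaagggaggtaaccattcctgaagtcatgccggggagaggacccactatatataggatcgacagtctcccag
Igtp: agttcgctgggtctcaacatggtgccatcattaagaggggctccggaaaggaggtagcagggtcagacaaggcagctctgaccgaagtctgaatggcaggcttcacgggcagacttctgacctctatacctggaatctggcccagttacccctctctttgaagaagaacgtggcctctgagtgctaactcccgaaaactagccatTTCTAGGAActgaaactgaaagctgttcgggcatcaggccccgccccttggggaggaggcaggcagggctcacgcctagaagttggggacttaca
The motif is common: it lay in 8.30% of all mouse promoters and 6.83% of those of tested genes, in 8.91% of the promoters of genes that rose at least 2-fold and in 8.00% of those of genes that fell at least 2-fold.

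Of 27 chemokines, cytokines and NF-kB targets 13 rose (48.1%) and 2 fell, with a median of 0.76. Cxcl10 (ENSMUSG00000034855, chromosome 5, 92346638 to 92348889, minus strand), which draws T cells, had 19.0, 27.8, 212, 30.1 and 28.5 in db/db Unx, against 3.35 at the lowest, 4.72 at the median and 8.09 at the highest in db/m. Replicate 3 was the highest by far, and the other 4 still lay above all db/m libraries. Cxcl10 rose by 2.77 ± 0.41 (adjusted p 7.24e-06), and without replicate 3 by 2.17 (adjusted p 4.03e-08). Ccl2, which draws monocytes, rose by 1.70 ± 0.28 and Ccl6 by 1.78 ± 0.21. Ccl28, an epithelial chemokine, fell by 2.56 ± 0.25.

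The Cxcl10 promoter is shown for its NF-kB type motif, GGGA, 2 bases, TTCC, which starts 159 bases before the start at chr5:92348840-92349139 on the minus strand of GRCm38.p6 (RefSeq).
Cxcl10: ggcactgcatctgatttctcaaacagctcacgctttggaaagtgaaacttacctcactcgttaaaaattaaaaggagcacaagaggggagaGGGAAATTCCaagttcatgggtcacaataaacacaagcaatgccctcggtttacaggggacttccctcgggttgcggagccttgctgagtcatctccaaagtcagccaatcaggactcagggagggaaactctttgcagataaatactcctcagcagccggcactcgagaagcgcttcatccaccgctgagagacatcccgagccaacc
This motif lay in 1.47% of all promoters and 1.50% of those of tested genes. Among promoters of genes that rose at least 2-fold 12 of 348 held it (3.45%), and among those of genes that fell at least 2-fold 5 of 250 (2.00%). The AP-1 type motif TGANTCA lay in 5.28% of promoters of tested genes, in 10.6% for genes that rose at least 2-fold and in 8.80% for genes that fell at least 2-fold. These shares were not tested.

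Interferon-stimulated and antigen-presentation genes were higher on average and split the db/db Unx libraries. Of 32 interferon-stimulated genes 16 rose (50.0%) and 0 fell, with a median of 0.95. At an unadjusted p below 0.05 limma gave 21 higher and 0 lower. The list score was 0.44, -0.12, 2.94, 0.96 and 0.68 in db/db Unx and -0.28 to 0.19 over db/m, so replicate 2 lay within the db/m range and replicate 3 far above the rest. Iigp1, an immunity-related GTPase, had 11.2, 2.14, 1321, 60.7 and 23.1 in db/db Unx, against 7.85 at the lowest, 9.46 at the median and 19.0 at the highest in db/m, and was not called (adjusted p 0.162). Isg15, a ubiquitin-like protein, had 5.26, 6.07, 23.4, 5.27 and 4.85 in db/db Unx, against 0.846 at the lowest, 1.89 at the median and 2.59 at the highest in db/m. It was above db/m in all 5 libraries and rose by 1.61 ± 0.28 (adjusted p 2.48e-05), and by 1.22 (adjusted p 9.71e-05) without replicate 3. Without replicate 3 the count of interferon-stimulated genes that rose was 10, and with the 35-week libraries alone in the fit it was 8 (5 of 8 for MHC class II, below).

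All 8 tested genes of MHC class II presentation rose, with a median of 1.71, and for 0 of the 8 were the groups apart. Cd74 (ENSMUSG00000024610, chromosome 18, 60803848 to 60812652, plus strand), the invariant chain, had 978, 244, 3219, 2398 and 1355 in db/db Unx, against 273 at the lowest, 338 at the median and 383 at the highest in db/m. H2-Ab1 (ENSMUSG00000073421, chromosome 17, 34257689 to 34269419, plus strand), a beta chain of class II, had 1042, 159, 2165, 1821 and 868 in db/db Unx, against 184 at the lowest, 221 at the median and 288 at the highest in db/m. For both, replicate 2 lay below all db/m libraries and the other 4 above all of them. Cd74 rose by 1.84 ± 0.48 (adjusted p 0.00437) and H2-Ab1 by 1.99 ± 0.48 (adjusted p 0.00203). Without replicate 3 Cd74 rose by 1.48 (adjusted p 0.0214), without replicate 2 by 2.41 (adjusted p 3.94e-05) and without both by 2.13 (adjusted p 4.33e-04). With replicates 1 and 2 alone, that is without replicates 3, 5 and 6, its change was 0.54 (adjusted p 0.565), and 0 of the 8 genes were called by limma, 2 at an unadjusted p below 0.05.

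MHC class I presentation followed the same order of libraries. Of 17 genes 13 rose (76.5%) and 0 fell, with a median of 1.13 and scores of 0.80, -0.18, 2.62, 1.66 and 0.96 in db/db Unx and -0.21 to 0.21 over db/m. limma at an unadjusted p below 0.05 gave 17 higher and 0 lower. B2m, the light chain, rose by 1.63 ± 0.34 (adjusted p 5.87e-04), Psmb8, an immunoproteasome subunit, by 1.90 ± 0.48 and H2-K1 by 1.36 ± 0.28. The Psmb8 call was lost with the 35-week libraries alone in the fit (adjusted p 0.0635). With the replicate number as a block B2m, H2-K1 and Psmb8 all lost their calls (adjusted p 0.0758, 0.0897 and 0.170). Class I genes have many near-identical copies, so the division of reads among H2 genes is uncertain. Without replicates 3, 5 and 6, 4 of the 17 were called.

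Macrophage and monocyte markers moved with these lists. Of 24 markers 12 rose (50.0%) and 0 fell, with a median of 0.68 and sums of 761 to 1510.1 in db/db Unx and 357 to 489 in db/m. A sum is carried most by its members of highest value, while the scores below weigh all members alike. C1qa, C1qb and C1qc are also on the complement list and Ctss on the MHC class II list. The part of these markers in the results on complement, chemokines, interferon and antigen presentation was not tested. Scores were 0.46, -0.19, 1.24, 1.17 and 1.03 in db/db Unx and -0.15 to 0.20 over db/m. Lyz2, lysozyme, had 106, 60.5, 331, 279 and 269 in db/db Unx, against 40.8 at the lowest, 57.6 at the median and 86.8 at the highest in db/m, with replicate 2 inside the db/m range, and rose by 1.62 ± 0.35 (adjusted p 7.86e-04). Fcgr3, an Fc receptor, rose by 1.27 ± 0.24, Cd14 by 1.41 ± 0.27 and Gpnmb by 1.15 ± 0.25. Apoe, which tubule cells also express, is on this list and rose by 1.91 ± 0.15. The receptor Csf1r, which defines the lineage, was not called, with 29.2 ± 6.27 in db/db Unx (SD, n = 5) and 32.1 ± 3.01 in db/m (n = 6) and an interval of -0.45 to 0.14. Without replicates 3, 5 and 6, 1 of the 24 rose, and 3 did so at an unadjusted p below 0.05.

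**Figure D3:**
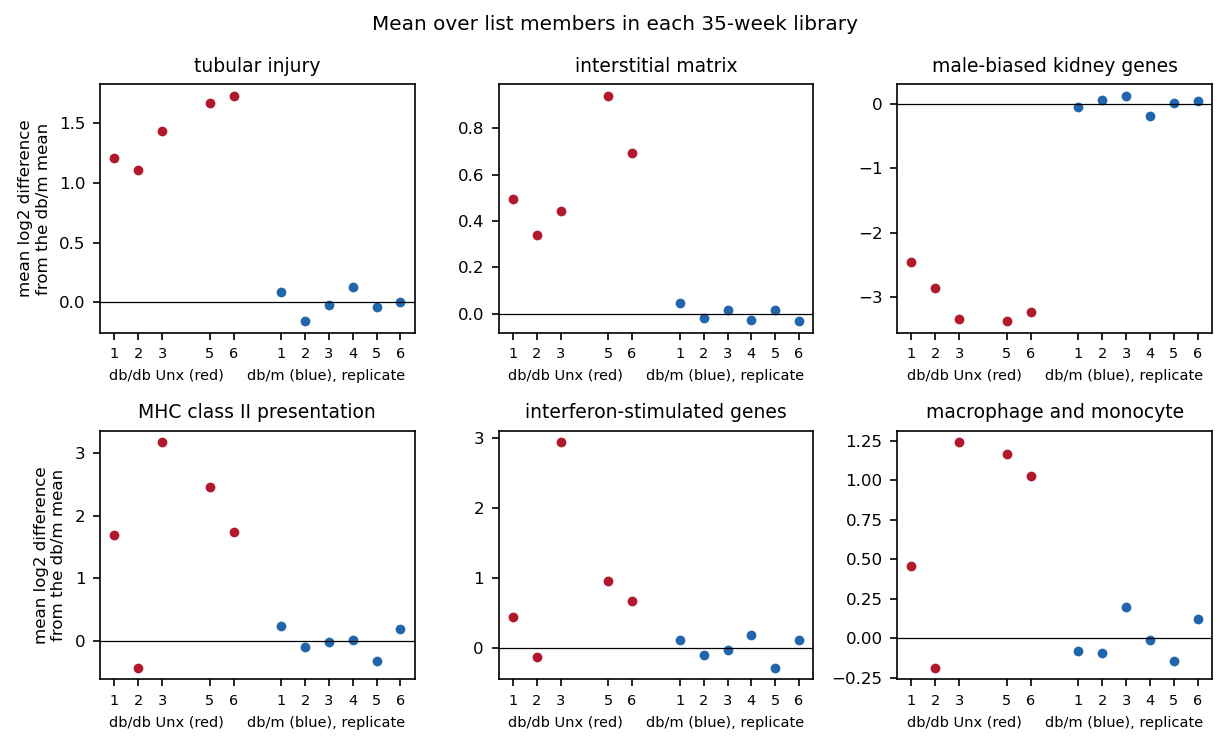
Score of 6 gene lists per library, each member's log2 value less its own db/m mean, averaged over the list, with the 5 db/db Unx libraries (numbered) left of the 6 db/m libraries. Tubular injury, interstitial matrix and male-biased genes lie off the db/m range in all 5 db/db Unx libraries, while the MHC class II, interferon and macrophage scores of replicate 2 lie in or just below the db/m range and those of replicate 3 are the highest.

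Other white blood cells gave little signal. Among 4 neutrophil, 5 dendritic cell and 7 T and NK cell markers limma called 0, and at an unadjusted p below 0.05 the counts were 0, 1 and 0 higher and 0, 1 and 0 lower. Their sums were 2.22 to 27.3, 7.17 to 19.7 and 2.66 to 19.1 in db/db Unx, against 1.29 to 4.50, 11.7 to 15.6 and 6.09 to 14.8 in db/m. Of 4 B and plasma cell markers 2 fell, Cd79a by 0.81 ± 0.19 and Cd79b by 0.80 ± 0.24, with means of 0.116 ± 0.0518 and 0.437 ± 0.305 in db/db Unx (SD, n = 5) and 1.01 ± 0.525 and 1.56 ± 0.808 in db/m (n = 6). The Cd79b call was lost with the replicate number as a block, at -0.72 (adjusted p 0.0628). It was also lost without db/db Unx replicates 2 and 3, at -0.72 (adjusted p 0.0548).

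Immediate early genes rose in 18 of 21 cases (85.7%) and fell in 0, with a median of 0.86 and scores of 0.41, 0.58, 1.03, 1.04 and 1.01 in db/db Unx and -0.12 to 0.14 over db/m. Egr1 rose by 1.40 ± 0.21, Atf3 by 1.22 ± 0.28 and Jun by 1.12 ± 0.14. 

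Of 25 p53 targets and senescence genes 13 rose (52.0%) and 1 fell, with a median of 0.31. The count that fell was 2 without db/db Unx replicate 2 or 6 or db/m replicate 2, and 3 without db/m replicate 4. Cdkn1a (ENSMUSG00000023067, chromosome 17, 29090976 to 29100727, plus strand), which encodes the cell cycle inhibitor p21, had 39.4, 51.3, 61.3, 76.1 and 63.9 in db/db Unx, against 7.97 at the lowest, 9.41 at the median and 10.9 at the highest in db/m. The groups were apart, and Cdkn1a rose by 2.49 ± 0.17 (adjusted p 4.67e-14). Gdf15, a stress hormone of the TGF-beta family, rose by 1.72 ± 0.20 and Phlda3 by 1.30 ± 0.16. Cell cycle genes were mostly not called, with 2 of 24 higher and 2 lower and a median of 0.09. The count that was higher was 1 without any 1 of db/db Unx replicates 2, 5 and 6 or db/m replicates 1, 2 and 4. Mcm6, of the replication helicase, fell by 0.97 ± 0.17 and the thymidine kinase Tk1 by 0.68 ± 0.19.

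Stress and redox genes were mixed. Of 27 antioxidant genes and NRF2 targets 9 rose and 9 fell, with a median of 0.08. The metallothioneins Mt1 and Mt2 rose by 1.76 ± 0.11 and 1.74 ± 0.12 and Nqo1 by 0.85 ± 0.10, while Gclm, a subunit of the enzyme that starts glutathione synthesis, fell by 0.87 ± 0.06. Of 26 ER stress and heat shock genes 6 rose and 9 fell, with a median of -0.19, and the ER chaperone Hspa5 fell by 0.62 ± 0.18. The Hspa5 call was lost under quantile normalization (-0.46, adjusted p 0.0587) and without replicates 3, 5 and 6, at -0.65 (adjusted p 0.0869). Without those libraries 1 ER stress and heat shock gene rose and 5 fell, and 5 antioxidant genes fell. Of 15 iron genes 7 rose and 2 fell, with a median of 0.35. Transferrin, Trf, rose by 1.83 ± 0.20, ceruloplasmin, Cp, by 1.65 ± 0.11 and haptoglobin, Hp, by 1.99 ± 0.50, and the transferrin receptor Tfrc fell by 1.03 ± 0.14. Hp had 1.22, 2.38, 29.7, 8.16 and 6.38 in db/db Unx, against 0.0444 at the lowest, 0.381 at the median and 7.40 at the highest in db/m, so replicate 3 was the highest and the groups overlapped. Its call was lost with the 35-week libraries alone in the fit (adjusted p 0.0791) and without replicates 3, 5 and 6, at 0.66 (adjusted p 0.414). Of 18 clock genes 2 rose and 1 fell, with a median of 0.19. Per1 rose by 1.54 ± 0.30 and Npas2 fell by 1.13 ± 0.35. The Npas2 call was lost with a pseudocount of 0.1 (adjusted p 0.0612), without replicates 2 and 3, at -0.99 (adjusted p 0.0839), and without replicates 3, 5 and 6, at -1.33 (adjusted p 0.0623). Per1 without replicates 3, 5 and 6 was at 1.14 (adjusted p 0.0562), and limma then called 0 clock genes, with 1 higher and 1 lower at an unadjusted p below 0.05. The hour of collection is not in the labels.

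Beyond the proximal tubule, connecting tubule markers were higher and those of the thick ascending limb were not. Of 5 connecting tubule markers 4 rose, with a median of 1.12, and their sums were 2549.5 to 3740.4 in db/db Unx and 1937 to 2571 in db/m. The calcium channel Trpv5 rose by 1.35 ± 0.18, the calcium-binding proteins S100g and Calb1 by 1.18 ± 0.11 and 1.12 ± 0.09. These genes respond to active vitamin D. Of 24 genes of vitamin D, phosphate and calcium handling, which include Gc and Cyp27b1, 10 rose (41.7%) and 6 fell, with a median of 0.14. Of 7 distal convoluted tubule markers 4 rose and 0 fell, with a median of 0.25, among them Trpm6, a magnesium channel, by 0.99 ± 0.18 and the thiazide-sensitive cotransporter Slc12a3 by 0.51 ± 0.08. Of 8 thick ascending limb markers 1 rose and 3 fell, with a median of -0.16. Egf, a growth factor made there, had 374, 583, 488, 487 and 417 in db/db Unx, against 743 at the lowest, 831 at the median and 1023 at the highest in db/m, with no overlap, and changed by -0.87 ± 0.11 (adjusted p 4.99e-07).

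Distal sodium, potassium and water transport genes rose in 15 of 27 cases (55.6%) and fell in 2, with a median of 0.25. The count that fell was 4 without db/db Unx replicate 2, and 1 without any 1 of db/db Unx replicates 1, 5 and 6 or db/m replicates 4 and 6, with the 35-week libraries alone and under quantile normalization. The aldosterone-induced kinase Sgk1 rose by 1.36 ± 0.31, a call lost without replicates 3, 5 and 6, at 0.80 (adjusted p 0.175), and the epithelial sodium channel subunit Scnn1a by 0.60 ± 0.10. Aqp4, a basolateral water channel, fell by 1.63 ± 0.23. Of 10 principal cell markers 5 rose and 1 fell, with a median of 0.25, and of 14 intercalated cell markers 1 rose and 2 fell, or 1 without db/db Unx replicate 1 or db/m replicate 2 or 6. Of 18 claudins and junction proteins 7 rose and 2 fell, with a median of 0.16, among them the cadherin Cdh6 by 1.36 ± 0.23 and Cldn7 by 1.09 ± 0.10.

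Podocyte markers were slightly higher, with 7 of 16 higher (43.8%) and 1 lower and a median of 0.31, and sums of 331 to 453 in db/db Unx and 292 to 337 in db/m. Cdkn1c, a cell cycle inhibitor of mature podocytes, rose by 0.90 ± 0.14 with no overlap. Without replicates 3, 5 and 6, 2 of the 16 rose and the median was 0.15. Endothelial markers were level, with 1 of 17 higher and 2 lower and a median of -0.01. Kdr, the main VEGF receptor, fell by 0.53 ± 0.11 and Emcn, endomucin, by 0.58 ± 0.10. Of 15 smooth muscle, pericyte and mesangium markers 4 rose and 1 fell, and of 6 parietal epithelium markers 4 rose and 0 fell.

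Renin-angiotensin genes leaned downwards, with 7 of 10 lower (70.0%) and 1 higher and a median of -0.36. Ace (ENSMUSG00000020681, chromosome 11, 105967945 to 105989964, plus strand), which makes angiotensin II, had 22.4, 28.6, 36.1, 20.4 and 21.8 in db/db Unx, against 109 at the lowest, 123 at the median and 137 at the highest in db/m. The groups were apart, and Ace changed by -2.23 ± 0.17 (adjusted p 1.29e-11). Mme, neprilysin, fell by 0.83 ± 0.11, while angiotensinogen, Agt, rose by 1.90 ± 0.12.

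Of 23 arachidonate and eicosanoid enzymes 10 rose and 5 fell, with a median of 0.14. Beside Alox15, the leukotriene synthase Ltc4s rose by 1.82 ± 0.16 and the epoxide hydrolase Ephx1 by 1.96 ± 0.12. Of 18 apolipoprotein and lipoprotein genes 9 rose (50.0%) and 4 fell, with a median of 0.49. Apoc3 and Apoa4, known from liver and gut, rose by 2.38 ± 0.13 and 2.16 ± 0.17, and the lipase Lpl fell by 1.91 ± 0.11. Of 25 genes of insulin and adipokine signalling 10 rose and 4 fell, with a median of 0.05, with Foxo3 higher by 1.18 ± 0.14 and Igfbp5 lower by 0.95 ± 0.09. Of 35 nephron and nuclear receptor transcription factors 6 rose and 9 fell, with a median of 0.06. The oestrogen receptor Esr1 fell by 1.30 ± 0.18.

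**Figure D4:**
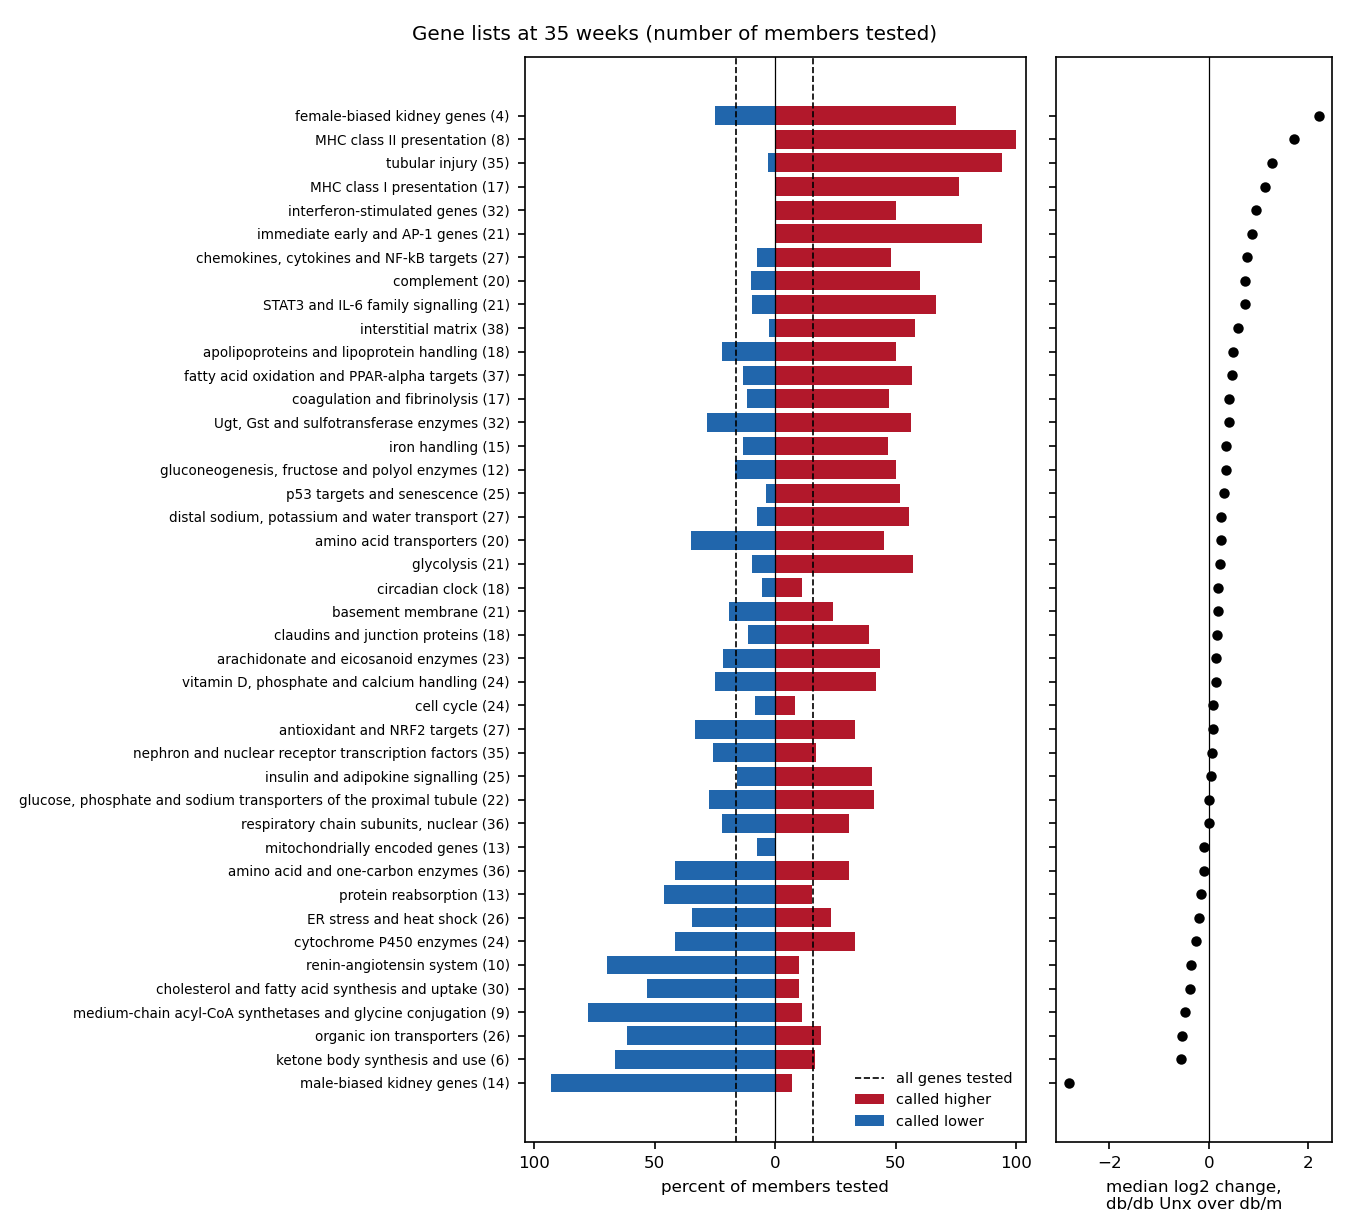
Share of tested members that rose and that fell in db/db Unx relative to db/m for 42 lists of gene functions (bars, left panel) and the median log2 change of each list (points, right panel), with dashed lines at the 15.9% and 16.4% of all tested genes that rose and fell. Tubular injury, MHC class II and immediate early genes have the highest shares that rose, at 94.3%, 100% and 85.7%, and male-biased genes the highest share that fell, at 92.9%.

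Variation among the db/db Unx libraries lay along more than 1 axis. Of the genes whose mean in db/db Unx reached the median of all tested genes (19.7), replicate 3 alone exceeded the other 4 by more than 1 on the log2 scale in 52, against 2 genes in replicate 1 and 1 gene each in replicates 2, 5 and 6. The largest such gaps of replicate 3 were in interferon-induced GTPases. Gbp10 had 5.67, 0, 335, 14.0 and 8.04 in db/db Unx, against 3.62 at the lowest, 4.73 at the median and 8.50 at the highest in db/m, and was not called (adjusted p 0.369), with a change without replicate 3 of -0.14 (adjusted p 0.882). Iigp1, given above, had the same pattern. The scores ordered the libraries differently: in MHC class II (1.69, -0.43, 3.18, 2.47 and 1.75 in db/db Unx, -0.32 to 0.23 over db/m) replicate 3 was highest and replicate 2 lowest, in tubular injury replicates 5 and 6 were highest, and in male-biased genes, with -2.46, -2.85, -3.34, -3.37 and -3.23 in db/db Unx and -0.18 to 0.12 over db/m, replicates 1 and 2 were the least changed. Replicates 1 and 2 lay nearest to db/m on the first principal component, so fewer calls with them alone could be foreseen. With replicates 1 and 2 alone in the db/db Unx group, which leaves 2 libraries, 28 of 35 tubular injury genes rose and 13 of 14 male-biased genes fell. Over all 13495 tested genes 1132 rose and 1275 fell in that fit, against 2148 and 2209 with all libraries. The list counts of that fit are to be read beside these lower counts of all genes. In that fit the counts that rose were 12 of 38 for interstitial matrix, 5 of 20 for complement, 6 of 27 for chemokines, cytokines and NF-kB targets, 8 of 21 for STAT3 and IL-6 family signalling, 6 of 25 for p53 targets, 6 of 21 for immediate early genes and 5 of 32 for interferon-stimulated genes. They were also 4 of 25 for insulin and adipokine signalling, 3 of 35 for transcription factors, 3 of 26 for organic ion transporters, 3 of 21 for basement membrane, 1 of 24 for the cell cycle, 1 of 15 for smooth muscle, pericyte and mesangium markers and 1 of 8 for fibroblast markers. The counts that fell were 4 of 10 for renin-angiotensin genes, 3 of 23 for arachidonate and eicosanoid enzymes, 3 of 35 for transcription factors, and 1 each for insulin and adipokine signalling, coagulation, glycolysis, the cell cycle, claudins and distal transport. None of the intercalated cell markers was called lower by limma, and 1 was lower at an unadjusted p below 0.05. Named genes that were called with all libraries and not in that fit were Cd74, H2-Ab1, B2m, H2-K1, Psmb8, Lyz2, C1qa, Cd14, Fcgr3, Gpnmb, C5ar1, Atf3, Sgk1, Hp, Pdk4, Col3a1, Per1, Npas2, Hspa5, Tk1, Alb and Lepr, with adjusted p-values of 0.0510 to 0.565, and mt-Cytb (0.864). The median SD of log2 values among genes that rose was 0.202 in db/db Unx and 0.205 in db/m, and among genes that fell 0.147 in db/db Unx and 0.137 in db/m. Among genes that rose at least 2-fold it was 0.369 in db/db Unx and 0.294 in db/m. Among those that fell at least 2-fold it was 0.282 in db/db Unx and 0.226 in db/m.

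Beside the 26-week comparison, which shares no library with the 35-week one, most changes had the same direction at both ages. At 26 weeks 4713 genes were called. Of the 4357 genes called at 35 weeks 3015 were called in the same direction at 26 weeks, 12 in the opposite one and 1330 not at all. The difference between the changes at the 2 ages, tested as an interaction, was called for 74 genes (0.548%), 53 with a more positive change at 35 weeks and 21 with a more negative one, and limma gave 1699 genes at an unadjusted p below 0.05. Of the 53, 40 were called higher at 35 weeks, and 27 of these 40 were not called at 26 weeks. Of the 21, 17 were called lower at 35 weeks, and 10 of these 17 were not called at 26 weeks. Age, cohort and any batch between the ages cannot be told apart.

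Among the genes with a more positive change at 35 weeks, Mgp, a secreted inhibitor of calcification, changed by 1.03 at 35 weeks and 0.00 at 26 weeks, a difference of 1.03 ± 0.18 (adjusted p 0.0100). The cytokine Il34, chosen after its values were seen, fell at both ages and less at 35 weeks, with -1.27 at 35 weeks and -2.22 at 26 weeks, a difference of 0.95 ± 0.21 (adjusted p 0.0334). Lgals3, galectin-3, differed by 0.66 ± 0.11 and the TWEAK receptor Tnfrsf12a by 0.97 ± 0.18. C1qa, of the first complement component, changed by 0.96 at 35 weeks and -0.46 at 26 weeks, a difference of 1.42 ± 0.26 (adjusted p 0.0100). The genes with a more negative change at 35 weeks included Slc34a1, with -0.55 at 35 weeks and -0.26 at 26 weeks, a difference of -0.29 ± 0.07 (adjusted p 0.0424). For Cd74 and H2-Ab1 the difference between ages was 2.35 ± 0.64 and 2.31 ± 0.64 and was not called (adjusted p 0.0889 for each). The number of genes called for this difference was 7 without db/db Unx replicate 5 and 249 without replicate 2.

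**Figure D5:**
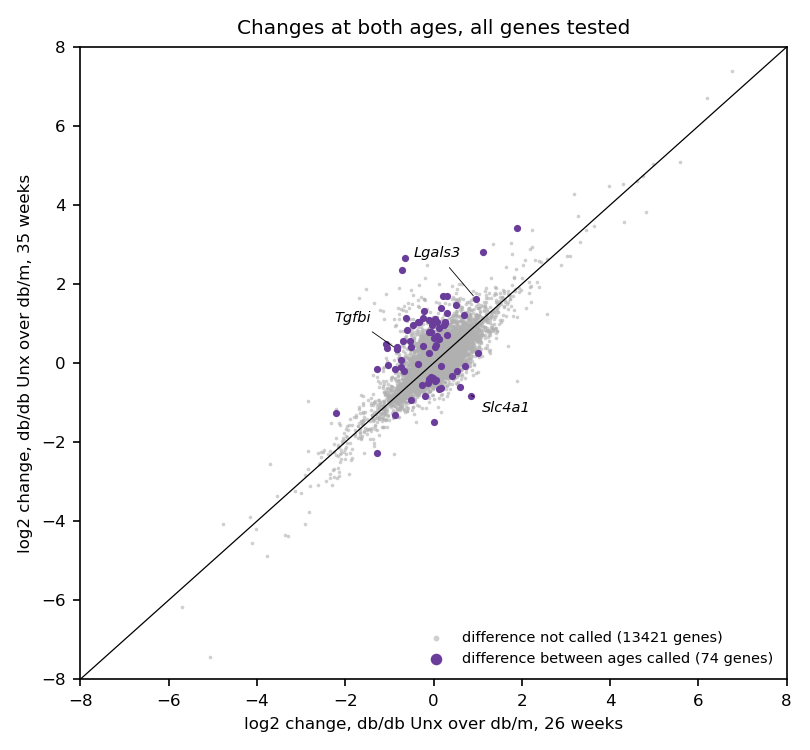
Log2 change of each tested gene, db/db Unx over db/m, at 35 weeks (vertical axis) against that at 26 weeks (horizontal axis), with the 74 genes called for the difference between ages coloured and some named. Most genes lie along the diagonal, and 53 of the 74 lie above it.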

How the data were processed

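RNA-seq of total kidney RNA from male mice gave 28 libraries, of which the 5 db/db Unx and 6 db/m libraries of 35 weeks were compared. The table that the authors deposited gives a signal value in each library for 14845 Ensembl genes, and 0 of its columns lack a sample. DRAGEN and the build GRCm38 (mm10) are named in the submitters' processing notes. The sources used here state no DRAGEN version, annotation, scaling or gene filter. In the 35-week libraries 89.2% to 91.1% of low values lay within 0.1 of whole multiples of 1 step per library, so the values were taken as estimated reads times 1 factor per library. Values divided by these steps summed to 21.8 to 30.8 M estimated counts, which were too often not whole for a count model. Estimated depth limits precision for low genes, and the values carry no counting interval.

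Symbols and positions came from GENCODE for GRCm38, with 11 identifiers left without a symbol. Values were used as log2(value + 1) for genes at 1 or more in at least 5 libraries. limma 3.58.1 in R 4.3.3 fitted 1 mean per group over the 4 groups of the series, with a mean-variance trend and robust moderation, two-sided, and Benjamini-Hochberg adjustment over 13495 genes at 0.05. Every adjusted p-value in the text is limma's. The script was tested on simulated data first. Summaries and figures used Python 3.11.15, numpy 2.4.6, pandas 2.3.3 and matplotlib 3.10.9.

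The members, gene lists and markers were chosen with earlier results of these data known, and lists are described by counts and medians only. For a list score, each member's log2 value less its own db/m mean at 35 weeks was averaged over the list. Named genes are Lepr; the 15 per direction with the largest change among called genes whose groups do not overlap and whose mean reaches the median of all genes, without predicted genes; the 10 per direction with the largest difference in mean; up to 5 called and 2 other members per list; the 12 with the largest spread among db/db Unx libraries; the 5 with the largest gap in each of these libraries; and the 6 per direction with the smallest adjusted p between ages. The text names a part of these, and some are not reported here. Il34, Cyp4a12b and its near-copy are outside this rule and were chosen after their values were seen.

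Promoters, from 250 bases before to 50 after each start, came from RefSeq (GRCm38.p6), in which 278 of the 389 genes that rose at least 2-fold and 203 of the 277 that fell matched. The labels do not say whether same-numbered libraries are related, and the libraries were treated as independent. Deviations of same-numbered libraries correlated at -0.03 to 0.08, which does not settle whether they share a batch. Alternatives covered the pseudocount (0.1 and 5), the filter, quantile and median-ratio scaling, the libraries in the fit, moderation, array weights, a replicate block and each library left out in turn.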

Additional observations from a re-analysis of the deposited data

Results flagged for a closer look

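Of 346 groups of values checked (165 genes and 8 list scores, each in db/db Unx and db/m at 35 weeks), 38 held a library that lay far from the others of its group by Dixon's test at the 95% level. Chance flags about 1 group in 20 when genes are not chosen for their spread. Some of these genes were named for a gap or a wide spread among the db/db Unx libraries. The number flagged is therefore not compared with that rate. The values follow by library, each with the range of the other libraries of its group, and no cause was tested.

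db/db Unx replicate 3 was high in Igtp at 1768 (12.2 to 95.6 in the others), Iigp1 at 1321 (2.14 to 60.7 in the others), Cxcl10 at 212 (19.0 to 30.1 in the others), Gbp10 at 335 (0 to 13.98 in the others), Isg15 at 23.4 (4.85 to 6.07 in the others), Hp at 29.7 (1.22 to 8.16 in the others) and Ccl2 at 15.1 (1.47 to 4.92 in the others). db/db Unx replicate 1 was high in Selenop at 1058 (740.3 to 802 in the others), Slc22a30 at 75.6 (32.9 to 39.5 in the others) and C1qtnf3 at 36.1 (17.97 to 22.3 in the others). db/db Unx replicate 2 was high in Cyp7b1 at 55.7 (16.7 to 26.9 in the others), Akr1b3 at 70.8 (51.9 to 55.6 in the others) and Cd55 at 4.61 (2.59 to 3.06 in the others). db/db Unx replicate 5 was high in Cyp4a12b at 172 (118 to 125 in the others), Ugt1a1 at 61.8 (46.4 to 47.9 in the others), Pdk4 at 73.6 (18.5 to 34.4 in the others), Col5a2 at 6.13 (1.95 to 3.03 in the others) and Fabp1 at 7.04 (1.96 to 3.42 in the others). db/db Unx replicate 6 was high in Cp at 131 (108 to 114 in the others) and Krt20 at 29.1 (4.70 to 9.40 in the others).

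db/m replicate 1 was high in S100g at 517 (333 to 392 in the others) and Slc12a3 at 541 (452 to 477 in the others) and low in Cyp7b1 at 161 (224 to 256 in the others). db/m replicate 2 was high in Ctsl at 748 (645 to 668 in the others) and low in Spp1 at 675 (812 to 863 in the others), Cyp4a12b at 43.2 (58.1 to 64.6 in the others) and Bhmt at 0.779 (3.08 to 4.08 in the others). db/m replicate 3 was high in Cyp4a12a at 1055 (716 to 817 in the others). db/m replicate 4 was high in Akr1b3 at 322 (75.2 to 143 in the others), Hp at 7.40 (0.0444 to 0.518 in the others), Psca at 13.1 (0.0648 to 1.05 in the others) and Lepr at 4.70 (0.799 to 2.10 in the others) and low in Acat1 at 1018 (1141 to 1205 in the others) and Slc7a13 at 531 (622 to 659 in the others). db/m replicate 5 was high in Hspa5 at 1028 (535 to 705 in the others), Gldc at 188 (45.0 to 93.4 in the others) and Mme at 68.7 (54.2 to 58.3 in the others) and low in Idi1 at 68.9 (114 to 136 in the others).

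For 9 of the named genes the change at 35 weeks differed from that at 26 weeks in limma's interaction term. The differences, 35 minus 26 weeks, were Slc34a1 by -0.29 ± 0.07 (adjusted p 0.0424, -0.55 at 35 weeks and -0.26 at 26 weeks), Lgals3 by 0.66 ± 0.11 (adjusted p 0.00711, 1.62 at 35 weeks and 0.96 at 26 weeks), Mgp by 1.03 ± 0.18 (adjusted p 0.0100, 1.03 at 35 weeks and 0.00 at 26 weeks), Tnfrsf12a by 0.97 ± 0.18 (adjusted p 0.0183, 1.48 at 35 weeks and 0.51 at 26 weeks), Il34 by 0.95 ± 0.21 (adjusted p 0.0334, -1.27 at 35 weeks and -2.22 at 26 weeks), C1qa by 1.42 ± 0.26 (adjusted p 0.0100, 0.96 at 35 weeks and -0.46 at 26 weeks), Cebpd by 1.39 ± 0.34 (adjusted p 0.0475, 1.71 at 35 weeks and 0.31 at 26 weeks), Egr1 by 1.22 ± 0.29 (adjusted p 0.0392, 1.40 at 35 weeks and 0.18 at 26 weeks) and Ccl2 by 1.50 ± 0.37 (adjusted p 0.0475, 1.70 at 35 weeks and 0.20 at 26 weeks). Without db/db Unx replicate 5 this term called 7 of 13495 genes.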

How the results depend on the processing

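The number of genes called stayed between 3751 and 4293 when 1 library was left out (1830 to 2126 higher, 1921 to 2184 lower, 613 to 747 by at least 2-fold), against 4357 (2148, 2209 and 666) with all. With a pseudocount of 5, 336 genes were called by at least 2-fold, since that scale compresses low values. Without db/db Unx replicates 3, 5 and 6 together, 2407 genes were called, 1132 higher and 1275 lower. That fit leaves 2 libraries in the db/db Unx group, those nearest to db/m on the first principal component. The other alternatives kept these counts within 1.5 times, and no scaling moved the median of all genes by 0.1 or more.

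The difference between ages was the least stable result. It was called for 74 genes, and for 7 to 249 with 1 library left out: 7 without db/db Unx replicate 5, 249 without replicate 2, 122 without replicate 1, 36 without replicate 3 and 42 without replicate 6, and 32 to 46 without db/m replicate 1, 2, 3 or 4. It was called for 41 genes without trend and robust moderation, 178 with array weights, 152 without db/db Unx replicates 2 and 3 and 0 without replicates 3, 5 and 6, where limma gave 1168 at an unadjusted p below 0.05. The count varied with which library was left out, and the cause was not tested.

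Of the 165 named genes, 7 of 3780 values under an alternative changed sign. Slc5a2 was 0.10 under quantile normalization. Without db/db Unx replicates 3, 5 and 6 the changes were 0.027 for mt-Cytb, 0.0071 for Slc5a2, -0.52 for Igtp, -0.95 for Iigp1 and -1.23 for Gbp10, none of them called by limma. Without replicate 3 Gbp10 was at -0.14, and over all omissions of 1 library at -0.14 to 1.96. A further 53 values lost their call and 6 gained one. Gpx3 had the highest value in each library, so quantile normalization sets its change to 0.

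Replicate numbers are shared between the groups, and the labels do not say whether same-numbered libraries are related. Only db/db Unx replicate 5 correlated best with its own number, which does not settle whether they share a batch. With the replicate number as a block, 3911 genes were called (1905 higher, 2006 lower, 664 by at least 2-fold), against 4121 for the same 35-week libraries with no block. In the block fit 1 of 8 MHC class II genes and 3 of 17 MHC class I genes were called. Depth limits genes of low value, which were called less often.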
